A study of Mus musculus with 15 samples.

Results

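Brain RNA of mice that received kainic acid together with an APOE condition was compared with brain RNA of mice that received kainic acid alone, within the libraries whose titles carry the letter H. The members were the 3 libraries of each group, named APOE_H and KA_H, which is 6 of the 15 libraries of the series. The comparison ran across 13695 of the 65964 entries of the authors' expression table, which had to reach 1 TPM in 3 or more of these libraries. TPM, the transcripts of a gene per a fixed total of transcripts in a library, corrects for gene length. Of the entries tested, 11949 carried a gene symbol and 1647 were loci assembled from the reads.

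All libraries came from C57BL/6 mouse brain and from a kainic acid model of temporal lobe epilepsy, so kainic acid is shared by both groups. The KA_H labels name treatment with kainic acid, and the APOE_H labels name kainic acid and APOE. They state neither what the letters H and L stand for, nor whether APOE was given, removed or altered, nor the age of the mice or the time after kainic acid. The untreated group analysed here carries the letter L, so KA_H was the one control for APOE_H. Whether replicates were separate mice is not stated in the labels, so the p-values measure the spread between libraries, which may be technical.

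Kainic acid is an agonist of glutamate receptors that sets off seizures and is followed by a reaction of microglia and astrocytes. Apolipoprotein E, the product of Apoe, carries cholesterol and phospholipids between cells in the brain. It is made mainly by astrocytes, and reactive microglia raise it together with genes of phagocytosis and of the lysosome, the acidic organelle where cathepsins break down protein and lipid is released from lipoproteins.

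The transcripts did not have the makeup of whole brain tissue. The neuronal marker Rbfox3 was listed at 0 TPM in all 6 libraries and the astrocyte marker Gfap reached at most 3.53 TPM, while the 18 microglial markers summed to 45034 to 51090 TPM in KA_H and 44971 to 62373 TPM in APOE_H. Choroid plexus markers, led by the thyroxine carrier Ttr, summed to 33880 to 42332 TPM in KA_H and 39648 to 61082 TPM in APOE_H. In such bulk libraries, fewer cells of a type and less RNA per cell cannot be told apart. Within groups, libraries correlated at a Spearman rho of 0.594 to 0.614 in KA_H and 0.663 to 0.768 in APOE_H, and between groups at 0.494 to 0.624, over the entries tested. Assembled loci held 5.46 ± 1.18% of the TPM in KA_H and 2.83 ± 0.54% in APOE_H (SD, n = 3), and pseudogenes 6.30 ± 0.50% and 3.56 ± 0.76%. Protein-coding genes held 83.0 ± 2.41% and 89.7 ± 1.19%. The groups did not overlap in these 3 shares, for which 3 libraries against 3 allow no exact permutation p under 0.1, two-sided. TPM keeps no sequencing depth, which is unknown here.

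Apoe itself separated the groups furthest. It stood at 16636, 10438 and 8767 TPM in the KA_H libraries and at 144, 6.49 and 12.4 TPM in the APOE_H libraries. Every APOE_H library lay far below every KA_H library, and the first APOE_H library lay above the other two of its group. The means were 11947 ± 4146 and 54.4 ± 77.9 TPM (SD, n = 3), a 220-fold lower level in APOE_H. The log2 fold change on the log2(TPM + 1) scale was -8.88 (SE 0.86, limma adjusted p = 0.000117). The exact two-sided permutation p was 0.1, the smallest that this design allows. The mouse Apoe transcript was thus the lower one in the libraries whose labels name APOE beside kainic acid.

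Apoe lies in a cluster of apolipoprotein genes on mouse chromosome 7, in the order Clptm1, Apoc2, Apoc4, Apoc1, Apoe and Tomm40, with the gene model Gm44805 between Apoc2 and Apoc4. Apoc2, the cofactor of lipoprotein lipase, fell with Apoe: it was at 61.7, 53.3 and 42.9 TPM in KA_H, at 3.48 TPM in the first APOE_H library and listed at 0 in the other two (log2 fold change -5.01, SE 0.77, limma adjusted p = 0.00375). Apoc2 reached the filter through KA_H, so its groups were partly set apart before the test and the p is not support for the fall. In a limma fit of the 6 H libraries alone its adjusted p was 0.0548. Apoc1, the neighbour next to Apoe, was at 178, 274 and 381 TPM in KA_H and at 40.8, 27.8 and 27.7 TPM in APOE_H. These groups did not overlap, yet the adjusted p was 0.474, and 0.0432 in the fit of the 6 libraries alone. Apoc4 overlapped between the groups, at 129 ± 62.5 TPM in KA_H and 87.7 ± 51.3 TPM in APOE_H. On the outer sides Clptm1 was higher without overlap, at 57.7 ± 18.2 and 156 ± 41.8 TPM (adjusted p = 0.787), and Tomm40 overlapped.

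**Figure D1:**
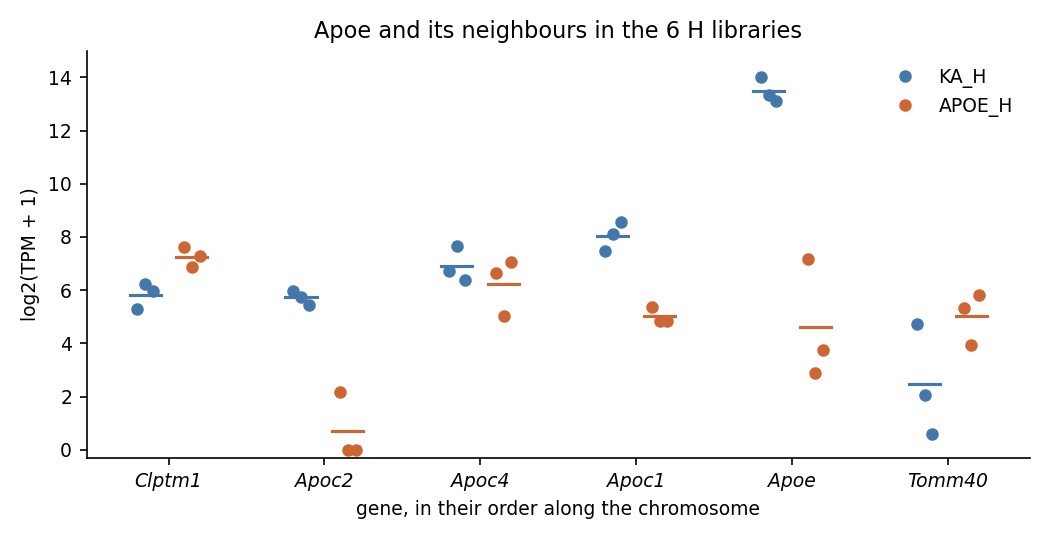
Expression of Apoe and 5 neighbouring genes as log2(TPM + 1) in each H library, in their order along chromosome 7; points are libraries (3 KA_H, 3 APOE_H) and bars are group means of the log2 values. Apoe, Apoc1 and Apoc2 lay lower in all APOE_H libraries than in any KA_H library, Apoc4 and Tomm40 overlapped, and Clptm1 lay higher.

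The promoters of Apoe and Apoc2 are shown because both transcripts fell, and those of Ctsd and Dusp1 because they are the abundant genes that rose and whose window held a searched motif. Hspa8 and Tmem119 were not searched. Each run is 250 bases before to 50 after the start site, 5′ to 3′ on the minus strand, from RefSeq on GRCm38.p6. Capitals mark a motif, and the runs without capitals hold neither motif. The first of 3 windows listed for Apoe spans chr7:19699139-19699438, and Apoc2 spans chr7:19677892-19678191. Ctsd spans chr7:142387778-142388077 and Dusp1 spans chr17:26508423-26508722.
Apoe: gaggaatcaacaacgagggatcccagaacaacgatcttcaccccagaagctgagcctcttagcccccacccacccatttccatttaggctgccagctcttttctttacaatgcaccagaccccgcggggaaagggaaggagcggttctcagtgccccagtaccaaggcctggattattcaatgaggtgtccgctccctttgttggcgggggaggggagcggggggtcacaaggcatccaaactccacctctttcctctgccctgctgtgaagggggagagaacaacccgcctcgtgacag
Apoc2: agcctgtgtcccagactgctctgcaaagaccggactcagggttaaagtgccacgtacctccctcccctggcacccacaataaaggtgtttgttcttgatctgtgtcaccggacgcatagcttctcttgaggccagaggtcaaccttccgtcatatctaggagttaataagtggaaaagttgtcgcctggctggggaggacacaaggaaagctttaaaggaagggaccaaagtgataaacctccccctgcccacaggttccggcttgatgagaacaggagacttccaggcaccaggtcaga
Ctsd: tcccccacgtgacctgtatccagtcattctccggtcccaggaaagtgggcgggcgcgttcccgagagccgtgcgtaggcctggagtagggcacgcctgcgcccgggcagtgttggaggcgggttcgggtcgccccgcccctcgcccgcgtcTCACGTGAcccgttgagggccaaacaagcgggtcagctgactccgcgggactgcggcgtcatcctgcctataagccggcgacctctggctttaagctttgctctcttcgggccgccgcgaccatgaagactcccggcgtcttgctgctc
Dusp1: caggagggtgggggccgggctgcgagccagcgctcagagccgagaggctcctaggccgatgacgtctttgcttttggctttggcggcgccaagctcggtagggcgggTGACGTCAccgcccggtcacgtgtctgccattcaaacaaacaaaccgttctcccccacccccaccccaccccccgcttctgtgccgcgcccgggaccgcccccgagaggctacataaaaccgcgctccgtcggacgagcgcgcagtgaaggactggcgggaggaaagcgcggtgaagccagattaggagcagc
The motifs searched, on both strands, were TCACGTGA, the E-box known from lysosomal genes, and TGACGTCA, the cAMP response element; each is its own reverse complement and they do not overlap in these windows. The Ctsd motif begins 99 bases before the start site and the Dusp1 motif 143 bases before it. TCACGTGA stood in 0.974% of all 32851 promoter windows, or 304 of 27025 genes (1.125%), and in 8 of the 36 lysosomal genes that had a window. TGACGTCA stood in 1.79% of all windows, or 549 of 27025 genes (2.031%), and in 2 of 21 immediate early genes. These matches describe the sequence and are not evidence of binding.

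Across all entries, 106 passed an adjusted p under 0.05 in limma, fitted to all 15 libraries: 74 were higher in APOE_H (0.54% of those tested) and 32 were lower (0.234%). At an unadjusted p under 0.05 there were 1369 entries, where 685 would be expected with no difference at all. The bulk of the entries leaned upward, with a median log2 fold change of 0.41 and 61.4% of entries above 0. Groups did not overlap for 18.1% of entries in the higher direction and 7.01% in the lower direction. With an upper-quartile scaling the median was 0.12 and 67 entries were higher and 51 lower, and with quantile normalization the median was -0.01 and 12 were higher and 20 lower.

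The higher calls were mostly of genes near the floor in KA_H. Of the 74, 57 were under 1 TPM in all 3 KA_H libraries, 32 of these listed at 0 in all 3, and 6 had a KA_H mean of 5 TPM or more. Of the 32 lower calls, 14 were under 1 TPM in all 3 APOE_H libraries and 16 had an APOE_H mean of 5 TPM or more. An entry under 1 TPM throughout one group could enter the test solely by reaching 1 TPM in every library of the other, so its groups had to differ: 226 entries entered so through APOE_H and 134 through KA_H. The 74 and 32 are given as counts, and nothing is read from their balance. When the test was limited to entries at 1 TPM or more in all 6 libraries, 9 passed: Apoe, Acaca, Eif4g3, Mllt6, Ube2g2 and Gm13025 lower, and Ctsd, Tmem119 and Efhd2 higher. A fit of the 6 H libraries alone also called 106 entries, 14 of them shared with the fit of all 15 libraries, which lent it 10 residual degrees of freedom in place of 4.

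**Figure D2:**
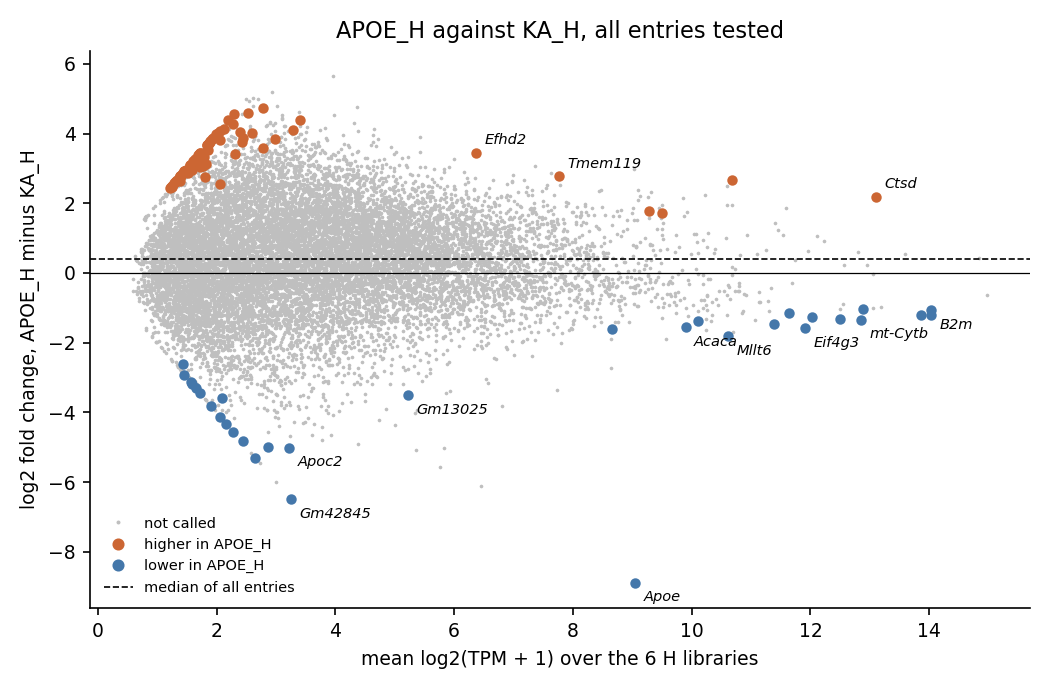
Log2 fold change (APOE_H minus KA_H, log2(TPM + 1) scale) against mean log2(TPM + 1) over the 6 H libraries for the 13695 entries tested; coloured points passed limma at an adjusted p under 0.05 (74 higher, 32 lower) and the dashed line is the median of 0.41. Most higher calls lie along the left edge, where KA_H was at or near 0, and Apoe lies lowest at -8.88.

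Among abundant genes, Ctsd, which encodes the lysosomal protease cathepsin D, rose. It was at 4975, 3721 and 3803 TPM in KA_H and at 24881, 10229.9 and 26090.1 TPM in APOE_H. The lowest APOE_H library was above the highest KA_H library, and the second APOE_H library lay well below the other two. The mean was 4.90-fold higher (log2 fold change 2.19, SE 0.39, limma adjusted p = 0.00977). The call was lost without the first APOE_H library (adjusted p = 0.0619) and without the third (adjusted p = 0.0622).

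Tmem119, a membrane protein that marks resident microglia, rose from 101, 86.4 and 63.4 TPM to 946, 413 and 467 TPM (7.30-fold, limma adjusted p = 0.0186). The first APOE_H library was the highest, and without it the log2 fold change went from 2.78 to 2.41 with an adjusted p of 0.109. The call was also lost without APOE_H 3, KA_H 2 or KA_H 3, at adjusted p of 0.0515 to 0.0579, and with quantile normalization (0.102). Efhd2, a calcium-binding protein of the actin cytoskeleton, went from 32.8, 22.8 and 18.3 TPM to 277, 269 and 270 TPM (11.0-fold, log2 fold change 3.45, limma adjusted p = 0.0187). Its APOE_H libraries differed little among themselves. The gene was picked for naming after its values were seen, and its call was lost on leaving out any library but KA_H 1, with adjusted p from 0.0525 to 0.0757, and with quantile normalization (0.0716).

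Hspa8, the constitutive Hsc70 chaperone, rose from 410, 240 and 374 TPM to 1170, 1135 and 1137 TPM (3.36-fold, limma adjusted p = 0.036). Dusp1, an immediate early phosphatase that switches off MAP kinases, rose from 437, 385 and 385 TPM to 1660, 1358 and 1003 TPM (3.33-fold, limma adjusted p = 0.0227). The Hspa8 call was lost on leaving out any 1 of the 6 libraries, with adjusted p from 0.0504 to 0.171, and with upper-quartile scaling (0.108), quantile normalization (0.0974) or 1 TPM required in all 6 (0.11). Dusp1 lost its call without APOE_H 1 (0.115), APOE_H 2 (0.0695), KA_H 2 (0.0794) or KA_H 3 (0.0575), and with upper-quartile scaling (0.103), quantile normalization (0.0828) or 1 TPM required in all 6 (0.0966). Without a filter Ctsd (0.133) and Dusp1 (0.051) were lost. Without the variance trend the calls of Ctsd, Tmem119, Efhd2, Hspa8 and Dusp1 were all lost, with adjusted p from 0.0802 to 0.401.

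In the other direction, 4 abundant genes fell about as much as one another and kept the call whichever library was left out. Acaca, acetyl-CoA carboxylase, which makes the malonyl-CoA from which fatty acids are built, was at 1463, 2089 and 1422 TPM in KA_H and at 577, 558 and 531 TPM in APOE_H. That was 2.99-fold lower (log2 fold change -1.55, SE 0.24, limma adjusted p = 0.00377). Eif4g3, a scaffold of the translation initiation complex, was at 6529, 7941 and 5672 TPM in KA_H and at 2375, 2184 and 2126 TPM in APOE_H, 3.01-fold lower (limma adjusted p = 0.00246).

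Mllt6 was at 3099, 3412 and 2411 TPM in KA_H and at 905, 613 and 1045 TPM in APOE_H, 3.48-fold lower (limma adjusted p = 0.0058). Ube2g2, a ubiquitin-conjugating enzyme of protein degradation at the endoplasmic reticulum, was at 643, 786 and 687 TPM in KA_H and at 283, 210 and 210 TPM in APOE_H, 3.02-fold lower (limma adjusted p = 0.0107). In none of the 4 genes did a library of one group reach the other group. All 4 also passed in the fit of the 6 H libraries alone, and all 4 lost the call in a fit without the mean-variance trend, where adjusted p ranged from 0.378 to 0.424. Ube2g2 was also lost with quantile normalization (0.0645) and Mllt6 with no filter on low values (0.078). The pseudogene 2810025M15Rik fell from 1809 ± 379 to 732 ± 354 TPM (limma adjusted p = 0.0244). Its call was lost without APOE_H 1, APOE_H 3, KA_H 1 or KA_H 2, with adjusted p from 0.0925 to 0.136.

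**Figure D3:**
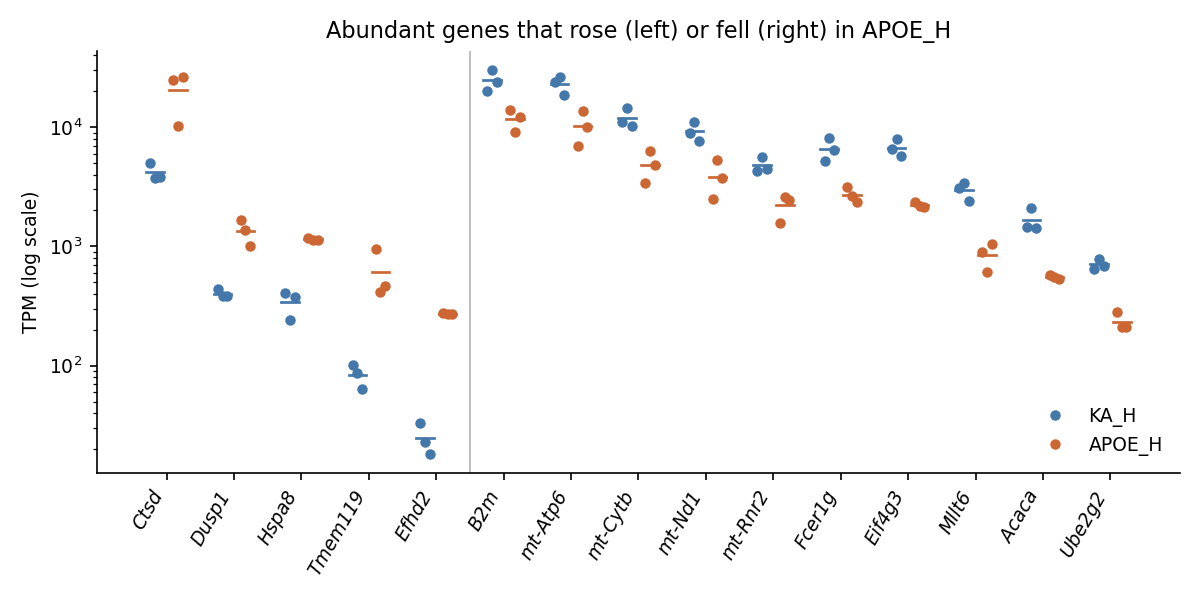
TPM on a log axis of 15 abundant called genes in each H library (points) with group means (bars), 5 that rose on the left and 10 that fell on the right. No APOE_H point of these genes lies within the KA_H range; Ctsd ran from 3721 to 4975 TPM in KA_H and from 10229.9 to 26090.1 TPM in APOE_H.

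Mitochondrially encoded transcripts were lower as a group. Of 15 such genes 14 were tested, all 14 had a negative log2 fold change, 12 did not overlap between the groups, and 4 fell by the test, with a list median of -1.07. mt-Cytb, a subunit of complex III, fell from 11097, 14401 and 10263 TPM to 3395, 6243 and 4819 TPM (2.47-fold lower, limma adjusted p = 0.0227). mt-Nd1 of complex I fell 2.40-fold, the ATP synthase subunit mt-Atp6 2.25-fold and the ribosomal RNA mt-Rnr2 2.18-fold, with adjusted p from 0.0267 to 0.0398. The first APOE_H library was the lowest of the 6 for each of these 4 transcripts. Mitochondrial genes made up 9.33 ± 1.51% of TPM in KA_H and 4.47 ± 1.42% in APOE_H (exact permutation p = 0.1, two-sided, n = 3 each). Their part in the other differences was not tested.

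The nuclear genes of oxidative phosphorylation were tested as a second list. Limma called none of the 59 tested (4 higher and 1 lower at an unadjusted p under 0.05), 8 were higher and 6 lower without overlap, and the median was -0.19, below the 0.41 of all entries, or 0.05 without APOE_H 1 and 0.05 without KA_H 3. The 4 mitochondrial calls were lost in the fit of the 6 libraries alone, with quantile normalization, with no filter, with 1 TPM required in all 6, without the variance trend, and without APOE_H 1, APOE_H 3, KA_H 1 or KA_H 2, and that of mt-Rnr2 also without KA_H 3. Without APOE_H 1 their adjusted p ranged from 0.134 to 0.206. The pseudogene Gm28437, called lower from 25512 ± 3743 to 11307 ± 3529 TPM, holds no 31-base word of its own, since 100% of its words are also in mt-Co3. Its value and that of mt-Co3 (2067 ± 248 and 826 ± 280 TPM, adjusted p = 0.0787) cannot be told apart.

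Further abundant transcripts fell, and the cells they came from were not tested. Fcer1g, the common gamma chain through which Fc receptors signal, was at 5171, 8129 and 6369 TPM in KA_H and at 3127, 2628 and 2344 TPM in APOE_H (2.43-fold lower, limma adjusted p = 0.0227). B2m, the light chain of MHC class I, was at 20086, 30146 and 23859.5 TPM in KA_H and at 13952, 9127 and 12169 TPM in APOE_H (2.10-fold lower, limma adjusted p = 0.0468). Tmsb4x, which binds actin monomers and was picked for naming after its values were seen, fell from 11023 ± 2673 to 5365 ± 1153 TPM (limma adjusted p = 0.036). Groups did not overlap in any of these 3. The 3 calls were each lost without APOE_H 3, KA_H 2 or KA_H 3, those of B2m and Tmsb4x also without APOE_H 1, and those of Fcer1g and B2m also without APOE_H 2. The adjusted p then ran from 0.0575 to 0.136 for Fcer1g, 0.0619 to 0.231 for B2m and 0.0694 to 0.2 for Tmsb4x. All 3 were lost with quantile normalization (0.0917 for Fcer1g, 0.383 for B2m, 0.264 for Tmsb4x) and in the 6 H libraries alone (0.0746, 0.11 and 0.118). They were also lost with no filter, with 1 TPM required in all 6 libraries and without the variance trend, and B2m and Tmsb4x at a pseudocount of 5 (0.0613 and 0.0587).

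A further set of genes was listed at or near 0 in KA_H and was present in every APOE_H library. Except for Hars, Cfap52, Slc5a5 and Cyb5d1, which each exceeded 1 TPM in a KA_H library, these genes entered the test solely through APOE_H. The values of all are given as a description, with no p. Fah, the last enzyme of tyrosine breakdown, was listed at 0 in all 3 KA_H libraries and stood at 13.6, 15.8 and 15.6 TPM in APOE_H. Scrn2 was listed at 0 in all KA_H libraries and stood at 8.60, 30.3 and 29.7 TPM in APOE_H. Tbc1d7, a subunit of the TSC complex that restrains mTORC1, was listed at 0 in all KA_H libraries and at 9.98, 44.6 and 25.9 TPM in APOE_H. The retinal gene Rd3 was likewise listed at 0 in KA_H and reached 8.84, 15.6 and 17.02 TPM.

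Tradd, the adaptor of the TNF receptor, was at 0.29 TPM or less in KA_H and at 22.2, 28.3 and 13.5 TPM in APOE_H. Prkar1b, a regulatory subunit of protein kinase A, was at 0.14 TPM or less in KA_H and at 11.7, 25.4 and 17.6 TPM in APOE_H. Tmem184a, Thumpd1, Slc5a5 (the sodium iodide symporter), Asf1b (a histone chaperone), Cyb5d1 and Ccdc24 had the same form, with at most 1.26 TPM in any KA_H library and at least 9.54 TPM in every APOE_H library. Cfap52, a protein of cilia, was at 12 TPM in the third KA_H library and listed at 0 in the other two, against 31.1, 31.6 and 61.3 TPM in APOE_H.

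Hars, the histidyl-tRNA synthetase that every cell needs, was at 1.02 and 5.13 TPM and listed at 0 in KA_H, and at 44.0, 37.1 and 64.2 TPM in APOE_H. No 0 was listed for any of the 30 housekeeping genes in the 6 libraries. Whether a listed 0 is a failed estimate was not tested, and no fold is given for these genes. None of these genes that lay near 0 in KA_H passed in the fit of the 6 H libraries alone. The pseudogene Pdcd5-ps was at 0.65 TPM or less in KA_H and at 40.6, 29.8 and 33.5 TPM in APOE_H, but all of its 31-base words are in Pdcd5, which overlapped between the groups (137 ± 37.4 and 121 ± 16.1 TPM). The split of reads between those copies is uncertain.

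The reverse form, present in KA_H and at or near 0 in APOE_H, was held by fewer entries, which with the exception of Gm13025 entered the test through KA_H and get no p. 1700016J18Rik, Gm11681, Gm17088 and AC161530.1 were at 3.30 to 48.8 TPM in KA_H and listed at 0 in every APOE_H library. Gm17088 is annotated as antisense, and whether the reads were counted by strand is not given in the sources used here. Gm13025 fell from 72.0, 166 and 159 TPM to 7.86, 7.26 and 17.6 TPM, 12.1-fold lower (limma adjusted p = 0.0163), a call lost without APOE_H 1, KA_H 2 or KA_H 3 (adjusted p from 0.0579 to 0.0887).

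Protein-coding genes of this form were 6720489N17Rik, at 18, 21.8 and 55.4 TPM in KA_H and 0.05 TPM or less in APOE_H, Tnik, a kinase of Wnt signalling, at 9.39, 35.8 and 12.8 TPM in KA_H and listed at 0 in APOE_H, and Ankrd33b, at 2.37, 34.4 and 21.7 TPM and listed at 0. Stat4, the transcription factor downstream of interleukin 12, was at 7.68, 20.2 and 16.5 TPM in KA_H and at 0.74 TPM or less in APOE_H. Gm42845 went from 64.3, 108 and 101 TPM to a listed 0 in all APOE_H libraries, and all of its 31-base words are in Rps7, which was at 141 ± 24.95 and 131 ± 2.07 TPM.

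Lysosomal genes were higher in number but rarely called. Of 45 tested, Ctsd was the 1 called, 28 did not overlap in the higher direction and 1 in the lower, and the list median was 1.08, against 0.41 over all entries. The protease Ctsb was at 2250, 1413 and 1336 TPM in KA_H and at 7129, 4170.3 and 6840.4 TPM in APOE_H (limma adjusted p = 0.11). In the fit of the 6 H libraries alone 8 of the list were called, all higher: Lamp1, Ctsa, Ctsb, Ctsd, Ctsz, Hexa, Grn and Laptm5.

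A list of 30 housekeeping genes gives the scale for such counts. In it 20 genes did not overlap in the higher direction and none in the lower and the median was 1.17. Among entries at 1 TPM or more in all 6 libraries, groups did not overlap for 22.3% in the higher direction and 8.05% in the lower direction.

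Microglial lists went both ways. Of 25 genes of the disease-associated state, which microglia take up around damage, Ctsd was the 1 called, 10 were higher and 4 lower without overlap, and the median of 0.36 was near that of all entries. The adaptor Tyrobp was at 10419.7, 14514 and 14355 TPM in KA_H and at 7231, 6688 and 6068 TPM in APOE_H (limma adjusted p = 0.13), while its partner receptor Trem2 was at 880, 664 and 1011 TPM and at 1892, 1429 and 1566 TPM (adjusted p = 0.506). The groups did not overlap in either gene, in opposite directions. Of 20 homeostatic genes Tmem119 was the 1 called, 10 were higher and 1 lower without overlap, and the median was 0.93. P2ry12, the ADP receptor of resting microglia, overlapped at 1481, 2699 and 3183 TPM and 2090.1, 1973 and 878 TPM.

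The Trem2, Fc receptor and phagocytosis list had 1 of 21 genes called, Fcer1g, which fell. Limma called none of the 15 complement genes tested (2 higher at an unadjusted p under 0.05); C1qa, part of the initiating complex, was at 2440.1, 1708 and 2006 TPM in KA_H and at 5618, 3158 and 4637 TPM in APOE_H (limma adjusted p = 0.417). The complement median was 0.23, and -0.11 with upper-quartile scaling.

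Chemokines ran against the general lean. Limma called none of 23 tested (1 higher and 4 lower at an unadjusted p under 0.05), but 5 did not overlap in the lower direction (Ccl2, Ccl3, Ccl4, Ccl12 and the receptor Ccr1) and 2 in the higher (the fractalkine receptor Cx3cr1 and Ccrl2). The list median was -0.64. Ccl4 was at 1762, 3774 and 3988 TPM in KA_H and at 1188, 1073 and 614 TPM in APOE_H (limma adjusted p = 0.0631), and Ccl3 at 3080.2, 5510.5 and 4677 TPM and at 1909, 2084 and 1006 TPM (adjusted p = 0.158). Both draw monocytes and T cells. Ccl4 passed with upper-quartile scaling (adjusted p = 0.0282) and without KA_H 1 (0.0259).

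Antigen presentation was divided within MHC class I. Of 19 genes tested B2m was the 1 called, lower, whereas 7 did not overlap in the higher direction and the list median was 1.26. The heavy chain H2-D1 was at 963, 463 and 376 TPM in KA_H and at 3432, 1242 and 4193 TPM in APOE_H (limma adjusted p = 0.135). Limma called none of 10 MHC class II genes (1 higher at an unadjusted p under 0.05) and 5 were higher without overlap, with a median of 1.51. Cd74, the invariant chain, was at 1551, 187 and 951 TPM and at 3659, 2955 and 4471 TPM (adjusted p = 0.327). H2-Ab1 was at 460.2, 61.6 and 227 TPM and at 1998, 1055 and 1502 TPM (adjusted p = 0.593, and 0.0458 in the fit of the 6 libraries alone). Interferon-stimulated genes had none of 36 called by limma (1 higher at an unadjusted p under 0.05), 7 higher and 2 lower without overlap.

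Lipid genes other than Apoe, Apoc2 and Acaca were not called. Of 24 apolipoprotein and lipid transport genes limma called 2 lower, Apoe and Apoc2, and 7 were higher and 3 lower without overlap. Apoc2 had reached the filter through KA_H, so its call is not counted as support. Clu, the other abundant brain apolipoprotein, was at 784, 962 and 767 TPM in KA_H and at 1604, 1955 and 2021 TPM in APOE_H (limma adjusted p = 0.894). Npc2, which passes cholesterol out of the lysosome, was at 468, 423 and 373 TPM and at 848, 857 and 817 TPM (adjusted p = 0.76). Both pairs of groups were apart by more than their own spread, and the fit across 15 libraries gave these genes wide standard errors of 1.88 and 0.81. In the fit of the 6 H libraries alone Apoe and Apoc1 were the members of this list that passed, so Clu and Npc2 were not called there either.

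In cholesterol synthesis limma called none of 19 genes (2 higher at an unadjusted p under 0.05) and 10 were higher without overlap, with a median of 1.197. The sterol oxidase Msmo1 was at 61.9, 61.7 and 59.99 TPM in KA_H and at 125, 141 and 153 TPM in APOE_H (limma adjusted p = 0.801). In lipid droplet and fatty acid synthesis 1 of 21 was called, Acaca, 3 were higher and 1 lower without overlap, and the median was -0.17, which turned to 0.58 without APOE_H 2, 0.26 without KA_H 1 and 0.17 without KA_H 2. In fatty acid oxidation and peroxisomes limma called none of 26 (2 higher at an unadjusted p under 0.05), 14 were higher without overlap and none lower, with a median of 1.11.

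Glycolysis and the pentose phosphate pathway had the highest median of the metabolic lists, 1.59, with none of 27 genes called by limma, 10 higher at an unadjusted p under 0.05 and 17 higher without overlap. In the housekeeping list 20 of 30 were higher without overlap, so the count of 17 is not read as particular to glycolysis. Gapdh was at 588, 424 and 595 TPM in KA_H and at 1360.0, 1895 and 2188 TPM in APOE_H (limma adjusted p = 0.321). Aldoa was at 526, 130.0 and 332 TPM and at 1149, 1176 and 2146 TPM (adjusted p = 0.242). In the fit of the 6 libraries alone Gapdh, Aldoa, Eno1 and Pkm passed, all higher.

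Chaperones and genes of the unfolded protein response were higher without overlap in 14 of 21, with 1 called, Hspa8, and a median of 1.25. That was near the 20 of 30 housekeeping genes, whose median was 1.17, so the count is not read as particular to this list. Hspa5, the chaperone BiP, was at 263, 328 and 259 TPM in KA_H and at 816, 877 and 764 TPM in APOE_H (limma adjusted p = 0.122). Among immediate early genes, which respond to activity and also to tissue handling, Dusp1 was the 1 of 20 called, 11 were higher without overlap, and the median was 1.09. Fos was at 537, 706 and 520 TPM and at 2016, 1144 and 834 TPM (adjusted p = 0.184). Arc and Npas4 were listed at 0 in all 6 libraries. Limma called none of 30 proteasome genes, nor any at an unadjusted p under 0.05, and 13 were higher and 1 lower without overlap. Cytosolic ribosomal proteins had none of 71 called by limma (2 higher and 4 lower at an unadjusted p under 0.05), with 9 higher and 17 lower without overlap and a median of -0.18.

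**Figure D4:**
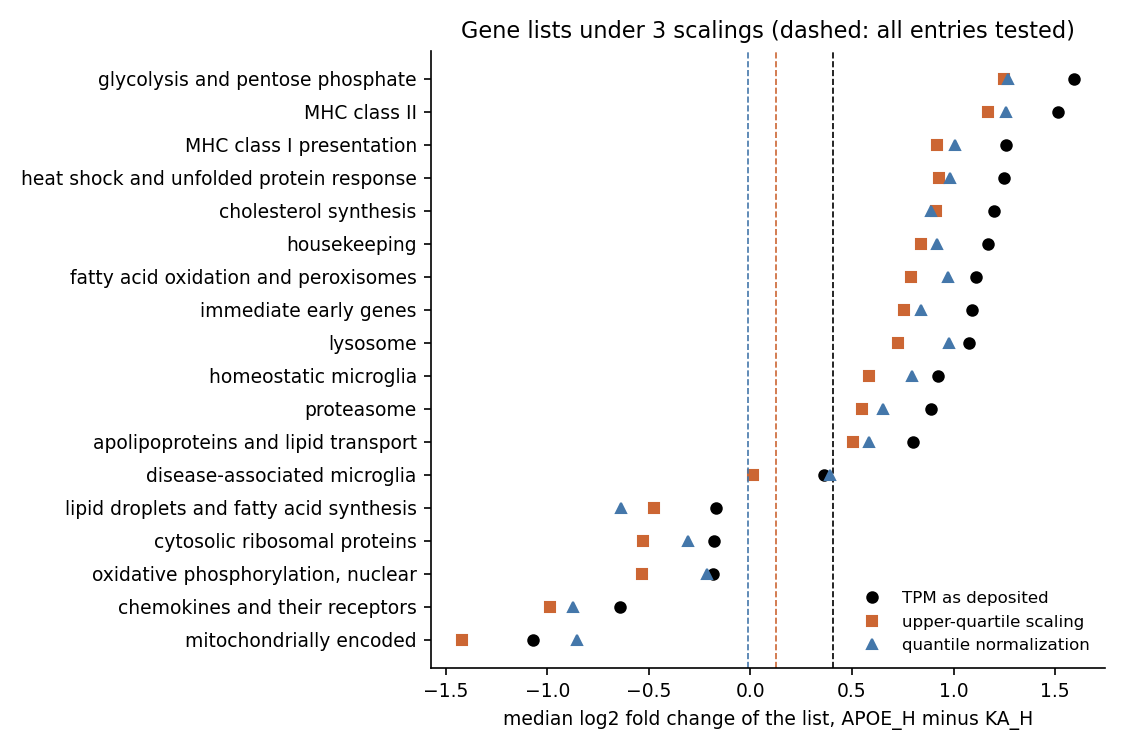
Median log2 fold change (APOE_H minus KA_H) of 18 gene lists with TPM as deposited, with upper-quartile scaling and with quantile normalization; dashed lines give the median of all entries tested under each (0.41, 0.12 and -0.01). Each of these 18 medians kept its sign under the 3 scalings, with mitochondrially encoded transcripts lowest at -1.07 and glycolysis highest at 1.59 as deposited, and housekeeping genes at 1.17.

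Summed markers of several other cell types were higher in APOE_H. Oligodendrocyte markers summed to 206 to 535 TPM in KA_H and 1187 to 1662 TPM in APOE_H, most of it the transferrin gene Trf (306, 497 and 161 TPM, then 1304, 1103 and 1552 TPM, limma adjusted p = 0.0539); of 14 markers 7 were tested, none was called, and Mog, Cldn11 and Ugt8a were listed at 0 throughout. Endothelial markers summed to 1056 to 2296 TPM and 2667 to 4326 TPM, and most of the APOE_H sum was Bsg. Bsg was at 894, 751 and 868 TPM, then 2350, 3920.1 and 3641 TPM (limma adjusted p = 0.0617), while Cldn5 was at most 13.5 TPM. Ly6a and Ly6c1, the next most abundant, overlapped with lower means in APOE_H (277 and 166 TPM, 171 and 37.1 TPM). Of 11 endothelial markers tested, 6 had a positive and 5 a negative log2 fold change. Their median was 0.15, against 0.41 over all entries. Astrocyte markers summed to 85.9 to 122 TPM and 183 to 222 TPM, with Gjb6, Ntsr2, Fgfr3 and Acsbg1 at 0 in all 6. Just 4 of the 20 were tested and none was called. Slc7a10 was higher without overlap, with means of 13.3 TPM in KA_H and 79.4 TPM in APOE_H. Slc1a3 and Atp1b2 overlapped (means of 41.1 and 62.6 TPM, 16.2 and 23.3 TPM).

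Mural cell and fibroblast markers summed to 66.1 to 134 TPM in KA_H and 212 to 439 TPM in APOE_H, and neuronal markers to 0.46 to 36.4 TPM and 13 to 44.3 TPM. Just 3 of 14 mural cell and fibroblast markers were tested and none was called. Igf2 was higher without overlap, with means of 54.1 TPM in KA_H and 232 TPM in APOE_H, while Pdgfrb and Vtn overlapped. Of the oligodendrocyte precursor markers Cspg5 was the 1 of 11 that reached the filter, which it did through APOE_H: it was at 0.01 TPM or less in KA_H and at 4.67, 7.52 and 7.05 TPM in APOE_H, while Sox10, Olig1 and Olig2 were listed at 0. The sums of border macrophage, neutrophil and red blood cell markers overlapped between the groups, as did those of neurons and oligodendrocyte precursors. Csf3r, a receptor gene of the neutrophil list, was at 49.4, 31.9 and 45.1 TPM in KA_H and at 326, 125 and 189 TPM in APOE_H (limma adjusted p = 0.296). The more abundant neutrophil markers S100a8 and S100a9 overlapped, with lower means in APOE_H (487 and 162 TPM, 283 and 119 TPM). In the KA_L and APOE_L libraries S100a8 and S100a9 were listed at 0 throughout, while Csf3r was at 25.1 to 128 TPM. Which cells Csf3r came from was not tested. Of 8 neutrophil markers tested, 3 had a positive and 5 a negative log2 fold change, with a median of -0.68. Choroid plexus and ependymal markers, whose sums overlapped, had none of 16 called by limma. Their log2 fold change was positive in 15 and negative in 1, and 6 were higher and none lower without overlap. The median was 1.12, against 1.17 in the housekeeping list. In the fit of the 6 H libraries alone Folr1 and Igfbp2 passed, both higher. The part of these cell types in the differences above was not tested.

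The same contrast in the L libraries, APOE_L against KA_L, called 5 entries higher (0.0365%) and 1 lower (0.0073%). Apoe was that 1, at 2772 ± 701 TPM in KA_L and 0.71 TPM or less in APOE_L (log2 fold change -10.89, limma adjusted p = 5.1e-06), and it was the only entry called in both. Its interaction term, the H difference minus the L difference, was 2.01 (SE 1.22, adjusted p = 0.662). Of the 74 entries higher in H, 26 had a positive log2 fold change in L, and of the 32 lower, 13 had a negative one. The rest were not all opposite in L. Entries listed at 0 in both L groups, such as Fah and Apoc2, had a log2 fold change of 0 there. The share over all entries in L was not computed, so these counts do not measure agreement between H and L.

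The interaction passed for 13 entries, all lower in H than in L (0.0949%), and for none in the other direction; at an unadjusted p under 0.05 there were 394 entries lower and 855 higher in H. Among the abundant genes that fell, Eif4g3 differed between the letters by -1.59 (SE 0.29, limma adjusted p = 0.0477), with a log2 fold change of 0.01 in L. Fcer1g fell by 1.27 on the log2 scale in H and had a log2 fold change of 0.90 in L (interaction adjusted p = 0.0366), and B2m fell by 1.07 with 1.07 in L (interaction adjusted p = 0.0366). Ctsd, Tmem119, Hspa8, Dusp1, Acaca, Mllt6 and Ube2g2 had log2 fold changes of -0.48 to 0.15 in L and no interaction call. The count of 13 went from 0 to 48 on leaving out single H libraries: it was 48 without APOE_H 2, 5 without KA_H 1 and 0 without any of the other 4.

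**Figure D5:**
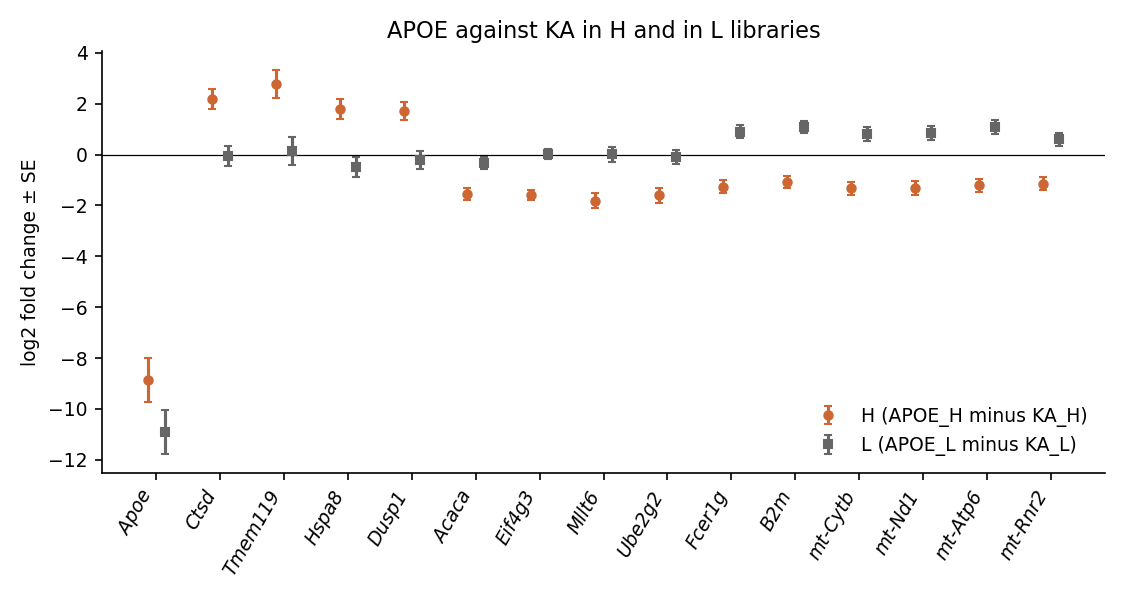
Log2 fold change ± SE of APOE against KA in the H libraries (circles) and in the L libraries (squares) for 15 abundant genes called in H; each group has 3 libraries. Apoe is low in both (-8.88 and -10.89), while B2m, Fcer1g and the 4 mitochondrial transcripts lie below 0 in H and above 0 in L.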

How the data were processed

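RNA was extracted with Trizol from frozen brain and made into TruSeq libraries, per the labels' protocols. The authors deposited 1 table of TPM for 15 libraries, with mouse Ensembl identifiers and assembled loci. The submitters' processing notes name STAR and GRCh38, a human build, while the identifiers are mouse; the build used is therefore unclear and no coordinate was taken from the files. Symbols came from GENCODE M21, which matched 52083 of 55416 Ensembl identifiers. TPM values carry no depth, so no count model was possible.

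Entries reaching 1 TPM in 3 or more H libraries were taken as log2(TPM + 1) and fitted with limma 3.58.1 (R 4.3.3), 5 group means over 15 libraries, trended empirical Bayes variances, two-sided, with Benjamini-Hochberg adjustment over 13695 entries. The interaction was a contrast of the same fit. The script was tested on simulated data. The comparison, the gene lists and the naming rule were chosen with earlier results of these data known. Named were Apoe, the 12 largest called changes each way without overlap and with a mean of at least 5 TPM, the 5 smallest adjusted p each way, the 5 largest called changes each way at 100 TPM or more, and leading members of each list; results of some genes are not reported here. Lists are described by counts and medians. Alternatives were other pseudocounts, filters, scalings, fits and leaving out each library.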

Additional observations from a re-analysis of the deposited data

Results flagged for a closer look

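For 13 entries the difference between APOE and KA itself differed between the H and the L libraries by the interaction test in limma (adjusted p from 0.0366 to 0.0496), each with a lower value in H. Among nuclear protein-coding genes of high abundance the H minus L differences of log2 fold changes were -1.59 for Eif4g3, -2.16 for Fcer1g and -2.14 for B2m. In mitochondrially encoded transcripts they were -2.16 for mt-Nd1, -1.97 for mt-Co2, -2.10 for mt-Atp8, -2.30 for mt-Atp6 and -2.15 for mt-Cytb. The mitochondrial pseudogenes Gm28437 (-2.15) and Gm29216 (-2.30) share 100% and 97.2% of their 31-base words with mt-Co3 and mt-Co1, so their reads cannot be assigned.

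The protein-coding 6720489N17Rik, which entered the test through KA_H, differed by -4.81, with the change in H (-4.83) and almost none in L (-0.02). Tmem147, a membrane protein of the endoplasmic reticulum, differed by -6.23, and Churc1 by -5.95. For these the change lay in L, at log2 fold changes of 7.21 and 5.26, against 0.98 and -0.69 in H, neither of which was called.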

How the results depend on the processing

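Apoe passed under every alternative run. Main counts were 106 calls (74 higher, 32 lower) and 13 interaction calls. The total was 63 (41 higher) at 5 TPM or more, 9 (3 higher, 6 lower) at 1 TPM or more in all 6 libraries, 32 (12 higher, 20 lower) with quantile normalization and 36 (27 higher, 9 lower) without the variance trend. Lower calls numbered 19 with no filter, 51 with upper-quartile scaling and 17 in the 6 H libraries alone. Interaction calls numbered 30 at a pseudocount of 0.1, 0 at 5, 22 with no filter, 7 at 5 TPM, 33 with upper-quartile scaling, 0 with quantile normalization, 2 without the 100 most abundant entries and 0 without the trend. Leaving out 1 library gave 75 to 131 calls, 55 to 99 higher and 20 to 41 lower, and 0 to 48 interaction calls; 55 of the 106 passed all 6 times. The causes were not tested, beyond fewer entries or libraries where a setting removes them.

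Replicate numbers do not show that libraries are paired: deviations of same-numbered libraries correlated at -0.0114, 0.02 and 0.0467. With the replicate number as a block 149 entries passed (111 higher, 38 lower), 104 of them shared with the 106, and 42 for the interaction. B2m (adjusted p = 0.0837) and Tmsb4x (0.0559) were lost under the block. A robust prior, chosen after seeing the data, gave 99.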

Other observations

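Of 14 genes of adenosine handling tested, Nt5e, the ectonucleotidase that makes adenosine outside cells, was the 1 called, but it entered the test through APOE_H and had to differ: it was listed at 0 in all KA_H libraries and at 4.56, 13.4 and 4.95 TPM in APOE_H. Entpd1, which acts one step before it, overlapped at 142, 109 and 117 TPM and at 229, 156 and 104 TPM.

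Limma called none of 16 iron genes (2 higher at an unadjusted p under 0.05), and 4 were higher without overlap; the ferritin heavy chain Fth1 was at 5158, 2746 and 3024 TPM in KA_H and at 7211, 6609 and 6078 TPM in APOE_H (limma adjusted p = 0.237). It called none of 32 antioxidant genes (3 higher at an unadjusted p under 0.05), with 13 higher and 2 lower without overlap. It called none of 21 microglial transcription factors (2 higher and 1 lower at an unadjusted p under 0.05); the master regulator Spi1 was at 112, 20.2 and 58.6 TPM and at 287, 232 and 197 TPM (adjusted p = 0.329). Toll-like receptor genes, 18 tested, had 4 higher and 3 lower without overlap and a median of 0.41, which was -0.08 with quantile normalization.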
